A study of Mus musculus with 9 samples.

Results

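Transcript levels of BAF-knockdown fibroblasts were compared with those of control fibroblasts, both 1 h after addition of the cytokine TNF-α (tumour necrosis factor) at 5 ng/ml. The comparison takes 6 of the 9 arrays of the series, the 3 titled BAFkd_st and the 3 titled control_st, and pairs them by the replicate number in the title. It covers 19698 genes, which are all genes that the array annotation names with a single symbol, each represented by its transcript cluster (the set of probes summarised to 1 value) with the highest mean signal. The other 3 arrays, of control cells without TNF-α, entered only the estimate of the spread and the choice of TNF-α-raised genes.

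All cells were mouse 3T3 cells, an immortalised embryonic fibroblast line, grown below confluence. BAF-knockdown cells stably expressed 1 short hairpin RNA against a sequence that the Brg1 and Brm transcripts have in common, from the U6 promoter of a retroviral vector that also drove green fluorescent protein. Transduced cells were sorted for strong fluorescence, and no cloning step is described, so the population is taken as a pool. The sources used here do not say what the control cells carried, so effects of the vector, of the sort and of the loss of Brg1 and Brm cannot be told apart. BAF-knockdown cells without TNF-α were not analysed here, so a difference that was present before the cytokine and one that arose in the hour after it cannot be told apart either.

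The BAF complex, the mammalian relative of yeast SWI/SNF, spends ATP to slide or evict nucleosomes and so opens promoters and enhancers to transcription factors. Its motor is either Brg1 (gene Smarca4) or Brm (gene Smarca2), and in fibroblasts it is known to work with AP-1 factors at enhancers of cell-type-specific genes. TNF-α signals to the transcription factor NF-kB, which within an hour turns on chemokines, cytokines and the inhibitors that later end the response. The comparison addresses which transcripts of TNF-α-treated fibroblasts depend on, or are held down in the presence of, normal Brg1 and Brm levels.

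The deposited values are log2 signals from RMA, a procedure that subtracts background, makes the distributions of the arrays equal and combines the probes of a transcript cluster. A level below is such a log2 value, and a difference is BAF-knockdown minus control, so that 1 unit is a 2-fold change. Differences are the mean of the 3 same-numbered pairs and carry the standard error (SE) of a limma model with the replicate number as a block (n = 3 arrays per group). The unstimulated control arrays enter that error. Deviations from group means correlated at 0.579 to 0.724 between same-numbered controls with and without TNF-α. Between same-numbered knockdown and TNF-α-treated control arrays they correlated at 0.21 to 0.388. An SE can therefore be smaller than the spread of the pairs alone would give. The model also takes 1 spread for all arrays. Array weights, which are lower for arrays that depart more from the fit, were 0.66, 0.28 and 0.47 for the knockdown arrays. They were 2.73, 0.64 and 1.16 for TNF-α-treated and 1.82, 4.3 and 0.73 for unstimulated control arrays. Genes with an adjusted p below 0.05, over all 19698 tested, are called higher or lower. Arrays 1, 2 and 3 of a group are always given in that order. The arrays were alike in scale, with medians from 7.77 to 7.83 and correlations of 0.992 to 0.998 between any pair, and the first quartile of an array's signals lay at 6.38 to 6.46, below which transcripts may be too dim to measure.

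The hairpin's targets were examined first. Smarca4 stood at 11.62, 11.53 and 11.56 in control arrays and at 10.50, 10.64 and 10.25 in BAF-knockdown arrays. Each knockdown array lay far below every control array, and Smarca4 fell 2.15-fold (difference -1.11 ± 0.08, adjusted p = 0.00124). Smarca2 stood at 9.51, 9.81 and 9.39 in control and at 9.12, 9.38 and 9.12 in knockdown arrays. The Smarca2 groups did not overlap, though knockdown array 2 came just under control array 3, and the difference of -0.36 ± 0.10 did not pass the test (adjusted p = 0.129, and 0.734 without the replicate block). Without unstimulated control array 2, the array with the highest Smarca2 level, it did (adjusted p = 0.0328). The 95% interval of the Smarca2 difference, -0.60 to -0.13, leaves out a fall as large as that of Smarca4 on these arrays. The paper, which measured both transcripts by quantitative RT-PCR, reports that the hairpin lowered both. The falls it reports are larger than those on these arrays. Quantitative RT-PCR is a measure unlike the array signal and was not used here.

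The other subunits of the complex moved little. None of 26 measured BAF subunits other than the targets was called by limma, though 2 were higher at p under 0.05 before adjustment (0 lower), and 22 had a 95% interval that stayed within 0.3 of 0. The largest difference belonged to Bicral, a subunit of the non-canonical form of the complex (0.26 ± 0.10, adjusted p = 0.262). Of 25 other ATP-dependent remodellers, Smarca1, an imitation-switch ATPase with a dim signal here, was the only gene called (-0.25 ± 0.05, adjusted p = 0.0301).

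Across the transcriptome, 652 genes were called, or 3.31% of those tested. Of these, 193 were higher in BAF-knockdown cells (0.98%) and 459 lower (2.33%). The median rise was 0.46 and the median fall -0.49, while 19 rises and 51 falls exceeded 1. The smallest called difference was 0.21 in size. Most transcripts moved by little: 15145 genes, or 76.9%, had a 95% interval that lay within 0.3 of 0, and the median difference over all genes was 0.01. The 3 knockdown arrays lay all above or all below the 3 control arrays in 480 of the 652 called genes (137 higher, 343 lower). Over all genes 10.1% were so arranged, 4.63% above and 5.47% below. A difference over 0.3 in size, with no test, was seen in 368 higher (1.87%) and 645 lower genes (3.27%).

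**Figure D1:**
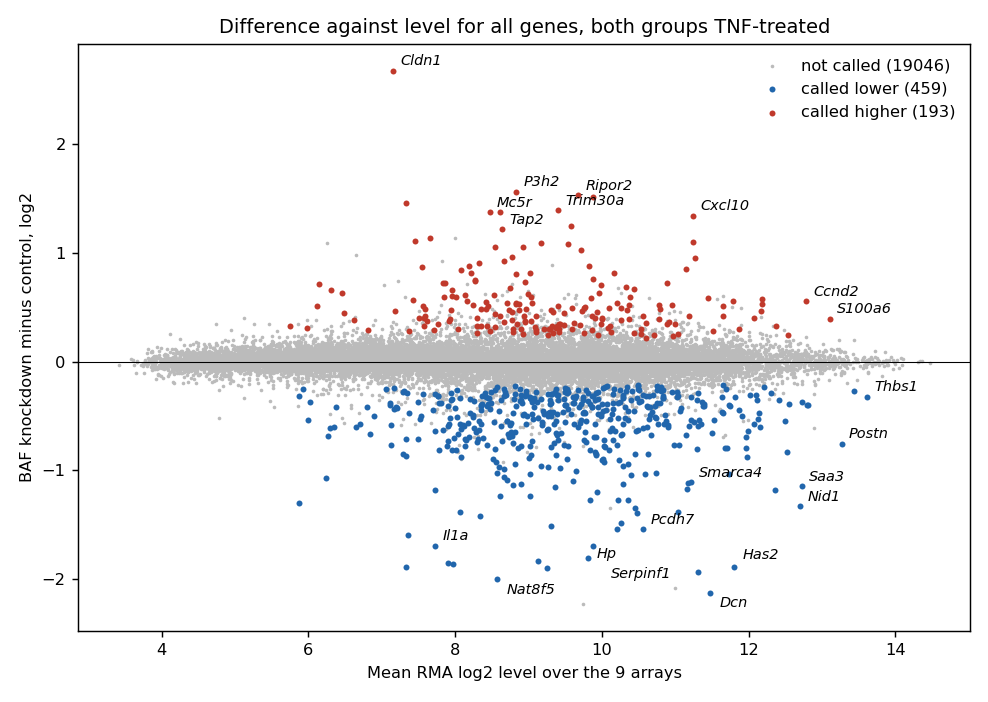
Difference between BAF-knockdown and control cells (y axis, log2, both TNF-α-treated) against the mean level over the 9 arrays (x axis, RMA log2) for all 19698 genes. Blue points are the 459 genes called lower, red points the 193 called higher and grey points the rest. Called falls reach -2.13 (Dcn) and called rises 2.67 (Cldn1), and most grey points lie near 0.

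These counts rest on the pairing of the arrays and on the unstimulated controls in the error. With the block but only the 6 TNF-α-treated arrays, 42 genes were called higher and 119 lower. A fit that ignored the replicate number called 27 genes (0.137%), 7 higher and 20 lower, all of which the blocked fit called as well. They include Smarca4, Unc5c, Lrrc4c, Tcim, Pcdh7, Col12a1, Postn, Vcan, Ltbp1, Bcl2l11, Creb3l1, Ebf1 and Sort1 among the falls described below, and Cldn1, Hic1 and Gadd45b among the rises. Single arrays mattered too: leaving out control array 1 left 27 genes higher and 117 lower, leaving out control array 3 left 26 and 111, and leaving out knockdown array 2 gave 466 and 718. With both arrays of replicate 1 and its unstimulated control left out, 0 genes were called by limma in either direction, against 655 higher and 964 lower at p under 0.05 before adjustment. A core of 122 genes, 24 higher and 98 lower, was called in each of the 9 fits that left out a single array. Genes of that core are marked as such below.

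**Figure D2:**
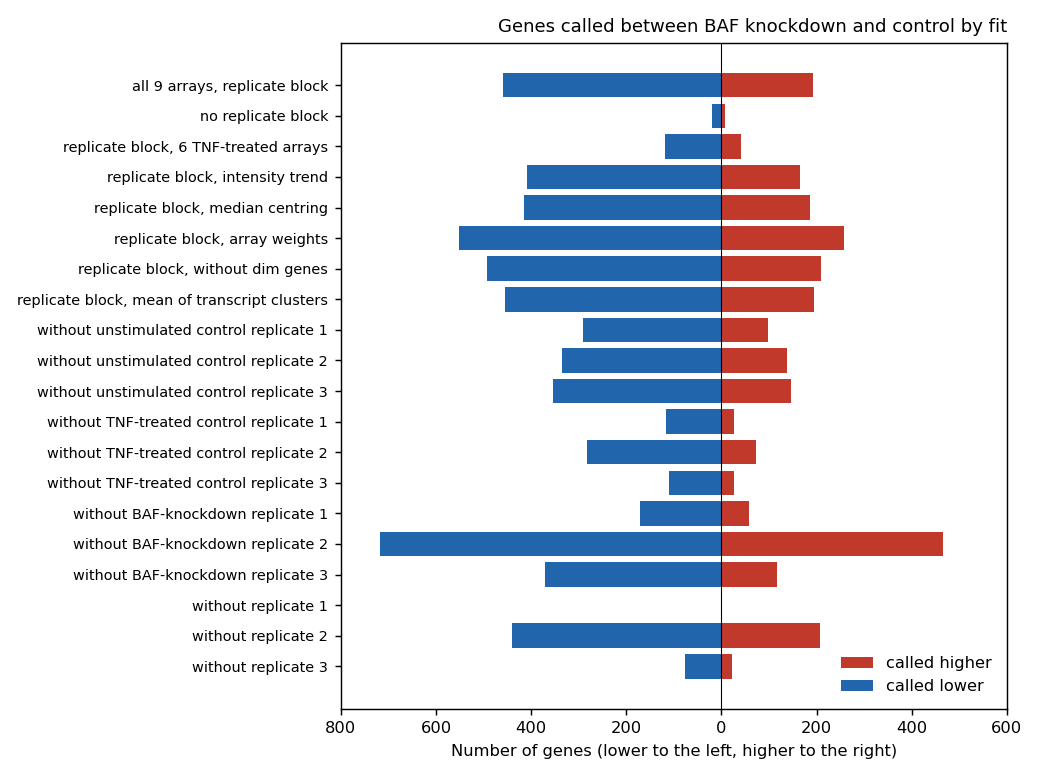
Number of genes called lower (bars to the left, blue) and higher (bars to the right, red) in BAF-knockdown cells under each fit, at an adjusted p under 0.05. The fit reported here gives 459 and 193, the fit without the replicate block 20 and 7, and the fit without all arrays of replicate 1 gives 0 and 0.

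The called fall of greatest size was that of Dcn. Decorin (Dcn), a small proteoglycan that coats collagen fibrils, stood at 12.28, 12.84 and 11.50 in control and at 10.28, 11.09 and 8.86 in knockdown arrays. All knockdown arrays lay below all control arrays, and the controls themselves differed by more than 1 unit in the same order as their partners. Dcn fell 4.36-fold (-2.13 ± 0.16, adjusted p = 0.00101), and with that shared spread left in the error, in the fit without the block, its adjusted p was 0.256.

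Has2, the synthase of the matrix polysaccharide hyaluronan, stood at 12.55, 12.88 and 11.91 in control and at 10.84, 11.51 and 9.33 in knockdown arrays. The groups did not overlap, and Has2 fell 3.69-fold (-1.89 ± 0.21, adjusted p = 0.00439). Serpinf1, the secreted anti-angiogenic factor PEDF, read 11.75, 12.22 and 11.84 in control and 9.64, 10.89 and 9.46 in knockdown arrays. Knockdown array 2 again came nearest to the controls, and the fall was -1.94 ± 0.18 (adjusted p = 0.00197). The netrin receptor Unc5c held 9.89, 9.98 and 9.79 in control and 8.01, 8.29 and 7.67 in knockdown arrays. Here the 3 control arrays lay close together, and the fall of -1.89 ± 0.09 was called with the block (adjusted p = 0.000158) and without it (0.00266).

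Dcn, Has2, Serpinf1 and Unc5c all belong to the core. So do 8 more of the 15 largest falls among genes whose groups did not overlap: Nat8f5 (-2.00), a member of the N-acetyltransferase Nat8 family, Tcim (-1.89), a small regulator of transcription, Lrrc4c (-1.86), the netrin-G1 ligand of the cell surface, Lrrc17 (-1.83), a secreted leucine-rich repeat protein, Hp (-1.80), the haemoglobin-binding plasma protein haptoglobin, Npy1r (-1.59), a receptor of neuropeptide Y, Mgst1 (-1.54), a membrane-bound glutathione transferase, and Pcdh7 (-1.54), a protocadherin. The knockdown means of Tcim (6.24) and Npy1r (6.18) lay below the first quartile of the arrays, so the sizes of their falls are uncertain. The remaining 3 of the 15 were called but not in every fit with an array left out. They were Serpinb10 (-1.85 ± 0.38, adjusted p = 0.0441), P2ry10b (-1.70 ± 0.22, adjusted p = 0.00818), a G-protein-coupled receptor, and the cytokine gene Il1a.

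**Figure D3:**
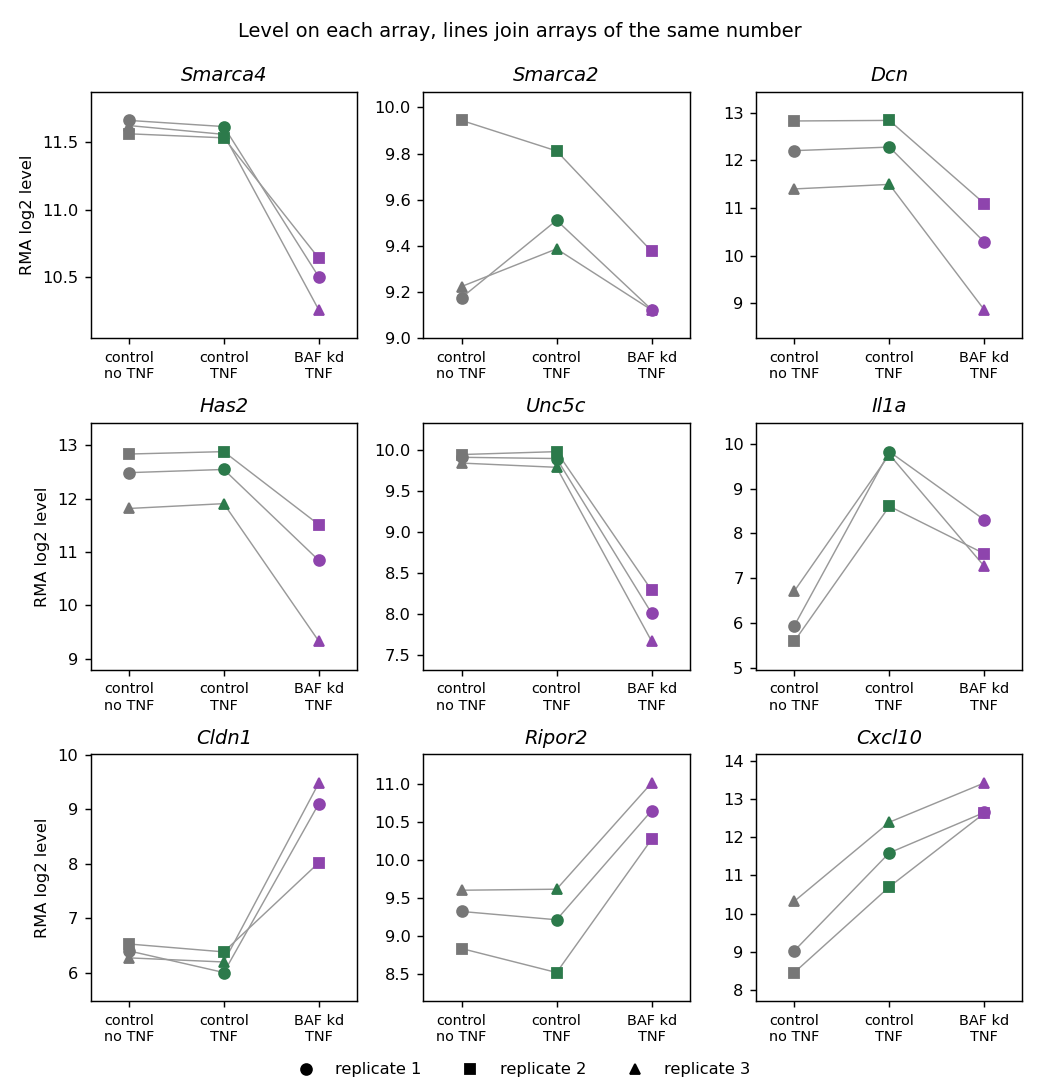
RMA log2 level (y axis) of 9 genes on every array, in control cells without TNF-α (grey), control cells with TNF-α (green) and BAF-knockdown cells with TNF-α (purple), with lines joining arrays of the same replicate number. The y axes differ and do not start at 0. Dcn and Has2 fall in each pair, by uneven amounts, from spread-out controls, Unc5c falls from tight ones, and Cldn1 rises in each pair.

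The called rise of greatest measured size was that of Cldn1, a claudin that seals the tight junctions of epithelia. It read 6.0, 6.38 and 6.20 in control and 9.10, 8.02 and 9.48 in knockdown arrays. The control levels lay at or below the first quartile of the arrays, and whether they exceeded background was not tested, so no fold is given. The measured difference was 2.67 ± 0.31 (adjusted p = 0.00476, and 0.0241 without the block). P3h2, a collagen prolyl 3-hydroxylase, read 8.49, 8.73 and 8.02 in control and 10.19, 9.59 and 10.14 in knockdown arrays. It rose by 1.56 ± 0.27 (adjusted p = 0.0251) with no overlap between groups.

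Ripor2, an inhibitor of the GTPase RhoA, read 9.22, 8.53 and 9.62 in control and 10.65, 10.28 and 11.02 in knockdown arrays. Both groups were spread in the same order, and its 3 paired rises were close to each other (1.53 ± 0.08, adjusted p = 0.000168, core). The rest of the 15 largest rises held Amigo2 (1.51), a leucine-rich adhesion protein, Ctso (1.45), a lysosomal cysteine protease, Mc5r (1.37, core), a melanocortin receptor, Ptpn13 (1.37), a tyrosine phosphatase, Fmo1 (1.24), a flavin-containing monooxygenase, Medag (1.09), a gene of adipocyte differentiation, and Ampd3 (1.08, core), an AMP deaminase. Trim30a, Cxcl10, Tap2, Gbp7 and Cxcl11 complete the 15 and are taken up with the interferon genes.

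Core genes that rose were few enough to name, after their values were seen. Beside Ripor2, Mc5r and Ampd3 they included the cell-cycle gene Ccnd2, the transcription factors Foxo1 (0.91 ± 0.08, adjusted p = 0.00149) and Hic1 (0.62 ± 0.06, adjusted p = 0.00259), the phosphoinositide kinase subunit Pik3cb (0.69 ± 0.06, adjusted p = 0.00142) and the polycomb ring-finger gene Pcgf5 (1.05 ± 0.07, adjusted p = 0.000473). The bone morphogenetic protein antagonist Chrdl1, the immunoproteasome gene Psmb10 and the chemokine gene Ccl5 belong to it too. The others were Ank2, Cacna1b, Pecr, Alcam, Slc7a1, Anxa3, Cenpv, Arhgap18, Slc5a3, Dusp22, Dtna, Pgap1 and Kirrel3, with rises between 0.47 and 0.93.

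A total of 39 lists of pathway, family and marker genes described the called genes by role. They held 1202 distinct measured genes, of which 44 were called higher and 107 lower. Those counts became 3 and 11 without the block, and 5 and 37 without control array 3, and the methods' t-test gave 0 after adjustment in every list. Each list's counts stand beside the 0.98% higher and 2.33% lower over all genes. Lists and members were chosen with earlier results of these data known, so an excess over those shares may be built in and tests nothing. Those shares also include dim genes, and only 17 of the 652 called genes lay below the first quartile of gene levels.

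Extracellular matrix genes fell more often than they rose. Among 28 collagens 4 were called lower and 0 higher, namely Col12a1 (-1.03 ± 0.05, adjusted p = 0.000241), a collagen of fibril surfaces, Col3a1 (-0.93 ± 0.10, adjusted p = 0.0035), a fibrillar collagen, and the microfibrillar Col6a3 (-0.76) and Col6a1 (-0.32). Col12a1 read 11.07, 11.13 and 10.87 in control and 10.01, 10.07 and 9.91 in knockdown arrays, a gap in each pair that was several times the spread within either group. The collagen list as a whole had a median difference of 0.00, and Col1a1, the main chain of type I collagen, differed by -0.14 ± 0.09 (adjusted p = 0.624).

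Proteoglycan and hyaluronan genes gave 7 falls and 0 rises among 31. Besides Dcn and Has2 the falls were those of Vcan (-0.61 ± 0.05, adjusted p = 0.0013), which encodes the hyaluronan-binding proteoglycan versican, of the glypican Gpc6 (-0.78), of Tnfaip6 (-0.68), whose product cross-links hyaluronan, and of the syndecans Sdc1 (-0.51) and Sdc3 (-0.32). Dcn, Has2, Vcan and Sdc1 were the core members. The list median was 0.00 here as well, and without control array 1 the 4 core genes alone remained called.

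Matrix glycoproteins gave 12 falls and 1 rise among 45, with a list median of -0.17. Periostin (Postn) read 13.56, 13.63 and 13.34 in control and 12.89, 12.74 and 12.63 in knockdown arrays. The groups were clearly apart, and it fell by 0.75 on the log2 scale (-0.75 ± 0.06, adjusted p = 0.00133). Nidogen (Nid1), which links laminin to collagen IV in basement membranes, read 13.08, 13.41 and 12.88 in control and 11.97, 12.59 and 10.81 in knockdown arrays. Its knockdown arrays spread widely, and the fall was -1.33 ± 0.23 (adjusted p = 0.0245).

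The other falls among the glycoproteins were Tgfbi (-0.80), Emilin2 (-0.72), Spon2 (-0.71), the laminin chains Lama4 (-0.64) and Lama5 (-0.34), Mfap5 (-0.63) and Efemp1 (-0.57) of elastic microfibrils, Ecm1 (-0.44), and the latent TGF-β binding protein Ltbp1 (-0.33). Thrombospondin (Thbs1), an adhesive glycoprotein, read 13.89, 13.78 and 13.61 in control and 13.58, 13.40 and 13.34 in knockdown arrays, a small but complete separation (-0.32 ± 0.06, adjusted p = 0.0309). Another laminin chain, Lamb1, rose (0.48 ± 0.09, adjusted p = 0.0326), and fibronectin (Fn1) gave -0.09 ± 0.08 (adjusted p = 0.73). Core members were Postn, Emilin2 and Spon2, and these 3 were all that was called in the list without control array 1.

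Matrix proteases and their inhibitors gave 6 falls and 0 rises among 30 (median -0.14): the metalloproteases Mmp19 (-1.27 ± 0.11, adjusted p = 0.00149), Mmp16 (-0.54) and Mmp14 (-0.41), the membrane-bound Adam12 (-0.78) and Adam19 (-0.63), and the aggrecan-cutting Adamts5 (-0.48). Mmp19 and Adamts5 were core members. Among 18 collagen-modifying enzymes, the procollagen C-proteinase Bmp1 fell (-0.54 ± 0.06, adjusted p = 0.00337, core) and P3h2 rose as given above. Serpins and complement genes gave 5 falls and 0 rises among 19 with the lowest median of any list, -0.29. Serpinf1, Serpinb10, Serpinb9b (-1.13), C1qtnf1 (-0.86) and Serpinb6b (-0.64) were called, of which Serpinf1 and C1qtnf1 were core members. Serpinb2, the plasminogen activator inhibitor of type 2, had the lowest difference in any list, -2.23, and did not pass the test (adjusted p = 0.0774).

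Among surface proteins, cadherins and protocadherins gave 3 falls and 0 rises among 27. Pcdh7 read 11.08, 11.18 and 10.95 in control and 9.63, 9.70 and 9.27 in knockdown arrays, and its fall was among those with the lowest adjusted p (-1.54 ± 0.06, adjusted p = 6.72e-05). Both groups were tight and far apart. Pcdh9 (-0.77, core) and the glycolipid-anchored Cdh13 (-0.33) fell too. Axon guidance genes gave 5 falls and 2 rises among 38. Unc5c and Lrrc4c, both core members, fell by the most, followed by the Slit receptor Robo2 (-0.60), the semaphorin and growth factor co-receptor Nrp1 (-0.60) and the semaphorin Sema4c (-0.29). The related co-receptor Nrp2 rose (0.59 ± 0.11, adjusted p = 0.029), as did Sema7a (0.59 ± 0.12, adjusted p = 0.0382). Nrp1 read 11.63, 11.27 and 11.24 in control and 11.19, 10.66 and 10.51 in knockdown arrays, with the groups apart, whereas those of Nrp2 overlapped.

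Ephrins and their receptors gave 3 falls and 0 rises among 17, in the ligand Efnb1 (-0.46) and the receptors Epha7 (-0.44) and Ephb3 (-0.30), and none of these was in the core. Integrins and focal adhesion genes gave 1 rise, Itga3 (0.50), and 1 fall, Itga5 (-0.64), the fibronectin receptor chain, among 27. Tight junction genes gave the rise of Cldn1 and a fall of Jam2 (-0.81) among 24. Of 27 contractile and serum response factor targets, the smooth muscle actin Actg2 fell (-1.39 ± 0.13, adjusted p = 0.00207, core), and Ankrd1, a target of the Hippo pathway, rose (0.95 ± 0.15, adjusted p = 0.0179) with groups that overlapped.

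**Figure D4:**
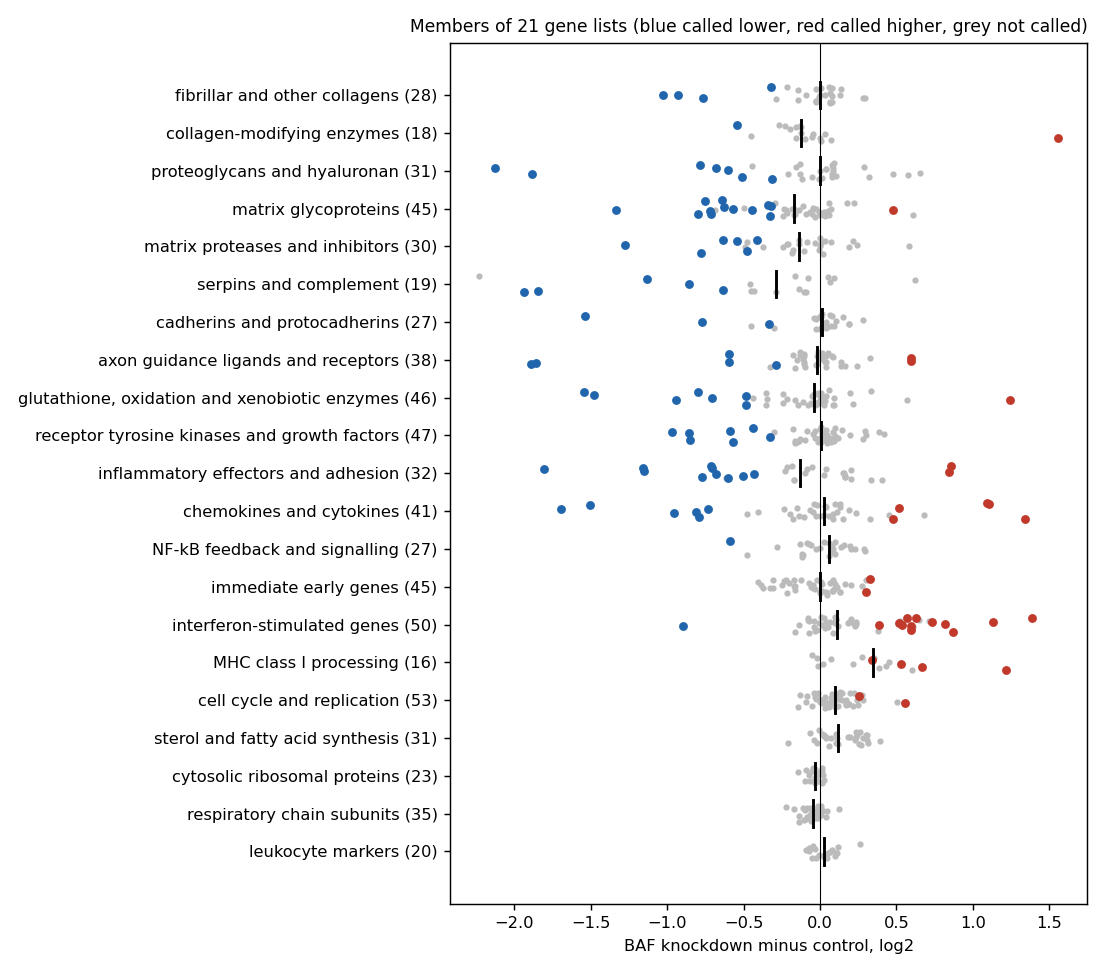
Difference between BAF-knockdown and control cells (x axis, log2) of every measured member of 21 gene lists (y axis, number of members in brackets). Blue points were called lower, red points higher and grey points neither, and the black bar marks the list's median. Inflammatory effectors hold 10 blue points among 32 and matrix glycoproteins 12 among 45, and the called points of the interferon and MHC class I lists are mostly red.

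Genes of glutathione, oxidation and xenobiotic handling gave 7 falls and 1 rise among 46. Mgst1 read 10.66, 11.07 and 10.44 in control and 9.08, 9.68 and 8.78 in knockdown arrays. The pairs fell by similar amounts, although the arrays within a group differed (-1.54 ± 0.06, adjusted p = 6.72e-05). The soluble glutathione transferase Gsta4 fell by a like amount (-1.48 ± 0.17, adjusted p = 0.00494), and Mgst2 (-0.94 ± 0.06, adjusted p = 0.000473) completes the 3 core members. Cyp1b1, a cytochrome P450 of steroids and aromatic compounds (-0.80), the epoxide hydrolase Ephx1 (-0.70), Gstm2 (-0.49) and the quinone reductase Nqo1 (-0.48) were the other falls, and Fmo1 was the rise. Without control array 1 only the core members were called.

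Of 32 inflammatory effectors 10 were called lower and 2 higher, with a list median of -0.13. Haptoglobin (Hp), an acute-phase protein, read 10.91, 10.72 and 9.72 in control and 9.09, 9.01 and 7.84 in knockdown arrays, so that every pair fell by a like amount (-1.80 ± 0.07, adjusted p = 6.72e-05). The acute-phase apolipoprotein Saa3 read 13.30, 13.52 and 12.89 in control and 12.07, 12.82 and 11.37 in knockdown arrays (-1.15 ± 0.14, adjusted p = 0.0059), with its highest knockdown array just under its lowest control. Orm1 (-0.71) and Saa2 (-0.68), 2 further acute-phase genes, fell as well, though Saa2 was dim, with a knockdown mean of 5.98.

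Ch25h, whose enzyme makes 25-hydroxycholesterol, fell by 1.16 on the log2 scale (-1.16 ± 0.13, adjusted p = 0.00386, core), and the lipopolysaccharide receptor gene Tlr4, dim here, by 0.60 (-0.60 ± 0.07, adjusted p = 0.00389, core). The prostaglandin receptors Ptger4 (-0.77) and Ptgfr (-0.50), the inflammatory caspase Casp4 (-0.70) and the phospholipase Pla2g4a (-0.43), which frees arachidonic acid, were the remaining falls. The rises were those of Adm (0.85 ± 0.14, adjusted p = 0.0217), which encodes the vasodilator adrenomedullin, and Tlr3 (0.84 ± 0.14, adjusted p = 0.0224), the receptor of double-stranded RNA. Without control array 1, 0 were called higher and 4 lower.

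Cytokine and chemokine genes moved in both directions, with 6 falls and 5 rises among 41 and a median of 0.03. Il1a, which encodes interleukin-1α, read 9.82, 8.60 and 9.76 in control and 8.30, 7.54 and 7.26 in knockdown arrays. Control array 2 and knockdown array 1 came nearest to each other, and the groups did not overlap (-1.69 ± 0.31, adjusted p = 0.0309). The macrophage chemoattractant Ccl9 fell by 1.51 on the log2 scale (-1.51 ± 0.27, adjusted p = 0.0261). Il6, the gene of interleukin-6, read 11.61, 11.54 and 10.50 in control and 10.51, 10.39 and 9.87 in knockdown arrays, and Cxcl2, which attracts neutrophils, 9.54, 9.36 and 8.69 against 8.75, 8.47 and 7.95. In both genes control array 3 was the low one and overlapped the knockdown arrays, while each pair fell (Il6 -0.96 ± 0.15, adjusted p = 0.0178, and Cxcl2 -0.81 ± 0.16, adjusted p = 0.0364). The interleukin-1 receptor antagonist Il1rn (-0.79) and Il11 (-0.73) were the other falls.

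The rises were those of 4 chemokines that attract T cells and of Cx3cl1. Cxcl10 read 11.59, 10.70 and 12.40 in control and 12.65, 12.64 and 13.43 in knockdown arrays. Its pairs rose by different amounts, and the lowest knockdown array stood above the highest control (1.34 ± 0.19, adjusted p = 0.0117). Ccl5 read 10.94, 10.58 and 11.64 in control and 11.90, 11.64 and 12.91 in knockdown arrays, with a rise in each pair (1.09 ± 0.09, adjusted p = 0.00149, core). Cxcl11 (1.10 ± 0.17, adjusted p = 0.0155), the membrane-bound Cx3cl1 (0.51 ± 0.10, adjusted p = 0.04) and Ccl17 (0.48 ± 0.08, adjusted p = 0.0258) also rose. Ccl5 was the only core member, and without control array 1 it was the only gene of the list still called.

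Of 50 interferon-stimulated genes measured, 12 were called higher, 1 lower and 37 neither. A difference above 0 was seen in 38 of the 50, against 54.4% of all genes, and the list median was 0.11 against 0.01 over all genes. The interferon-inducible Ifi202b (-1.23), Ifi203 (-0.51) and Ifi207 (-0.25), which are not in the list, were called lower. Among 16 genes of MHC class I processing 4 were called higher and 0 lower, 10 had all knockdown arrays above all control arrays, and the median was 0.35. Gbp7, a guanylate-binding GTPase of cell-autonomous defence, read 7.29, 7.40 and 7.23 in control and 8.17, 8.15 and 9.0 in knockdown arrays. Knockdown array 3 stood highest and the controls lay close together (1.13 ± 0.20, adjusted p = 0.0255). Tap2, a subunit of the peptide transporter that loads MHC class I, read 8.22, 8.32 and 8.14 in control and 9.43, 8.85 and 10.05 in knockdown arrays, again with array 3 highest and array 2 lowest (1.21 ± 0.23, adjusted p = 0.0339). Psmb10, an immunoproteasome subunit, read 10.17, 10.09 and 10.47 in control and 10.82, 10.70 and 11.22 in knockdown arrays, with an even step in each pair (0.67 ± 0.06, adjusted p = 0.00174, core).

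The other rises of the interferon list were Trim30a (1.39 ± 0.28, adjusted p = 0.0428), a restraint on Toll-like receptor signalling, Parp14 (0.87), the apoptosis-linked Xaf1 (0.81), Gbp3 (0.73), the giant ubiquitin ligase Rnf213 (0.63), Ifi35 (0.59), Rtp4 (0.59), Herc6 (0.57), Parp12 (0.54), the oligoadenylate synthetase family member Oas1b (0.51) and Ifih1 (0.38), the cytosolic RNA sensor MDA5. Oas1b read 5.84, 5.96 and 6.06 in control arrays, below the first quartile of the arrays, and Ifih1 6.48, 6.44 and 6.58, near it. The sizes of their rises are uncertain. Psme2 (0.53) and Psme1 (0.34), activators of the proteasome, completed the MHC class I rises. Slfn2, a schlafen gene, went the other way (-0.90 ± 0.09, adjusted p = 0.00322, core). Of the genes that carry the interferon signal, the regulatory factor Irf5 fell (-0.45 ± 0.05, adjusted p = 0.0033, core), and 4 others, picked after their values were seen, were not called: Irf1 gave 0.33 ± 0.08 (adjusted p = 0.0688), Stat2 0.19 ± 0.06 (adjusted p = 0.202), Irf9 0.10 ± 0.08 (adjusted p = 0.744) and Irf7 0.05 ± 0.10 (adjusted p = 0.918). These rises leaned on single arrays. Without control array 1, 0 interferon-stimulated genes and 1 MHC class I gene (Psmb10) were called higher, and without knockdown array 2 the counts were 18 and 8.

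The sequences before the start sites of 4 genes that rose are shown for the motifs they hold. They were chosen after values and motif matches were seen, from 2 runs of neighbouring genes that rose, Cxcl10 with Cxcl11 and Gbp7, Gbp3 and Gbp2b with Kyat3. The window of Kyat3 (0.61) held neither motif and is not shown, and Cxcl11 is named only. Each is the 250 bases upstream of a RefSeq start site in GRCm38.p6, 5′ to 3′ on the gene's strand, for Cxcl10 (chr5:92348890-92349139, minus strand), Gbp7 (chr3:142530086-142530335, plus strand), Gbp3 (chr3:142559794-142560043, plus strand) and Gbp2b (chr3:142594597-142594846, plus strand). Capitals mark matches to the core of the interferon response element, spelled GAAA, any 2 bases and GAAA again, and to the kappaB consensus bound by NF-kB, each searched on both strands.
Cxcl10: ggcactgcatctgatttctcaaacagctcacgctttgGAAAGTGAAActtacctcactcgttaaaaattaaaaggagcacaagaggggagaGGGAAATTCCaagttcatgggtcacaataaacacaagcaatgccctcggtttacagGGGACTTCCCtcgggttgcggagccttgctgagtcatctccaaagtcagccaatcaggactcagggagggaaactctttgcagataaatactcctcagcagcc
Gbp7: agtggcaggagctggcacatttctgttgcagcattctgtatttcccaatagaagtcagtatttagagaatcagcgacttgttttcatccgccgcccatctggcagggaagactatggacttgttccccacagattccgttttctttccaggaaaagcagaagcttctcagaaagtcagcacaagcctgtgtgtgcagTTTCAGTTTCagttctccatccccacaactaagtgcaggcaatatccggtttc
Gbp3: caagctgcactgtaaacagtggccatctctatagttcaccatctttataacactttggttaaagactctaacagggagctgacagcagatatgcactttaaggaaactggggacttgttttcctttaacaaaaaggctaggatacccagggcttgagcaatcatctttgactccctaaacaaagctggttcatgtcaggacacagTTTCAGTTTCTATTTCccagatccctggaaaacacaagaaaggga
Gbp2b: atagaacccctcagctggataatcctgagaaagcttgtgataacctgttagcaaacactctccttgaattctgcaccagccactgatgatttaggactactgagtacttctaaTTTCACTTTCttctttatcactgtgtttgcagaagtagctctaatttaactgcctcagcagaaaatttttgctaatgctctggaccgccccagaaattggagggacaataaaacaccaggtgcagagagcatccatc
In Cxcl10 the match to the interferon element, GAAAGTGAAA, began 213 bases before the start site, and 2 kappaB matches, GGGAAATTCC and GGGACTTCCC, began 159 and 103 bases before it. The Gbp genes held matches on the opposite strand, read here as TTTCAGTTTC in Gbp7 and Gbp3 and as TTTCACTTTC in Gbp2b. Gbp3 held 2 that overlap, and it has 2 start sites in the table, of which the one with more matches is shown. The interferon element occurred in 2.98% of the 32851 promoter sequences of 250 bases, searched in the same way, and the kappaB consensus in 3.9%. A match is a run of letters and no evidence of binding.

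Of 8 genes that TNF-α raised in control cells and that were lower in BAF-knockdown cells, 7 had a promoter sequence and 3 of these held a kappaB match. Those 3 are shown for that match, in capitals, while the windows of Il1a, Ch25h, Slfn2 and Ptger4 held neither motif: Il6 (chr5:30012864-30013113), Cxcl2 (chr5:90903649-90903898) and Tnip3 (chr6:65590148-65590397), all on the plus strand of GRCm38.p6.
Il6: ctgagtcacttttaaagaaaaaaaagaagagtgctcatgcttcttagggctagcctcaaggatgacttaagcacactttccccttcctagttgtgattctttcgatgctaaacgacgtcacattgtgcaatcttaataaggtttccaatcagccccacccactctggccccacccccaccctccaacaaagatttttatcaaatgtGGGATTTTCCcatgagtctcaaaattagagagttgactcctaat
Cxcl2: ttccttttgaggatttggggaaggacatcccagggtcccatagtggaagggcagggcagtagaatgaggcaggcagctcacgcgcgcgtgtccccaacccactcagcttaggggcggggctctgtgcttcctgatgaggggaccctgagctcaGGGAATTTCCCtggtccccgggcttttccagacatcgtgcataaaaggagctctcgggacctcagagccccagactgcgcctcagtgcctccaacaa
Tnip3: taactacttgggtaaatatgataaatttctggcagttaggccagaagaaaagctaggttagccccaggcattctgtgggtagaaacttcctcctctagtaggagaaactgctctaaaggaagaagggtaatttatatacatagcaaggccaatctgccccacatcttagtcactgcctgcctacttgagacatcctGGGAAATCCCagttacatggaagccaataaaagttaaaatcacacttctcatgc
The match in Il6, GGGATTTTCC, began 44 bases before the start site. In Cxcl2 a match on each strand overlapped, and together they gave the run GGGAATTTCCC. The match in Tnip3, GGGAAATCCC, read as a match on both strands and began 54 bases before the start site. None of the 7 windows held the interferon element. Of 5 TNF-α-raised genes that were higher in BAF-knockdown cells, 3 had a promoter sequence and 1 of these, Cxcl10, held a kappaB match. The share among all TNF-α-raised genes was not counted, so no contrast between the directions is drawn. That a window lacks a motif says only that those letters are not in it.

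The genes that TNF-α raised in control cells within 1 h numbered 72 (0.366% of all genes) in the blocked fit of TNF-α-treated against unstimulated control cells. That contrast uses the same TNF-α-treated control arrays as the knockdown comparison, so a low or high reading there moves both. Of the 72, 8 were called lower in BAF-knockdown cells (11.1%), 5 were called higher (6.94%) and 59 were not called, and their median knockdown difference was -0.04. Chemokine and feedback genes were among those not called. The chemokine gene Ccl2 read 13.23, 13.23 and 13.32 in control and 13.45, 13.34 and 13.59 in knockdown arrays (0.19 ± 0.11, adjusted p = 0.579), against a mean of 10.94 without TNF-α. Nfkbia, which encodes the inhibitor IκBα, gave 0.08 ± 0.08 (adjusted p = 0.781), and Tnfaip3, the deubiquitinating inhibitor A20, gave -0.48 ± 0.12 (adjusted p = 0.0774).

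The 8 genes that were lower were chosen for a rise with TNF-α and a fall in the knockdown. Their knockdown mean can therefore only lie between the control means without and with TNF-α or below both. Il1a had a mean of 6.08 without and 9.40 with TNF-α in control cells, and of 7.70 in knockdown cells. Cxcl2 had means of 6.28, 9.20 and 8.39 in that order, Il6 of 9.40, 11.21 and 10.26, and Ch25h of 8.14, 10.56 and 9.40. Slfn2 followed with 7.71, 9.36 and 8.46. Tnip3, a feedback inhibitor that binds A20, with 8.87, 9.64 and 9.06, was lower by -0.59 ± 0.09 (adjusted p = 0.0127) and was the only member called among 27 NF-kB feedback and signalling genes. Ptger4 stood at 8.70, 9.38 and 8.60, and Hcar2, a receptor of hydroxycarboxylic acids, at 7.47, 8.43 and 7.26 (-1.18 ± 0.15, adjusted p = 0.00643). These last 2 means lay below that of control cells without TNF-α.

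The 5 TNF-α-raised genes that were higher exceeded their TNF-α level in control cells by the rule that chose them. Mc5r had means of 7.44 without and 8.30 with TNF-α in control cells and of 9.67 in knockdown cells (1.37 ± 0.10, adjusted p = 0.000979). Cxcl10 had 9.27, 11.56 and 12.91, and Adm 9.71, 11.44 and 12.29. Gadd45b, a stress-response gene, read 11.95, 11.93 and 11.94 in control and 12.20, 12.23 and 12.28 in knockdown arrays, a small step between tight groups (0.30 ± 0.05, adjusted p = 0.0158, and 0.0454 without the block). The kinase gene Nuak2 was higher by 0.30 ± 0.06 (adjusted p = 0.0329). Mc5r, Nuak2 and Hcar2 were named after their values were seen. Of 6 genes that TNF-α lowered (0.0305% of all genes), 3 were called in the knockdown, all of them lower (Ephb3, Hoxa3 and Nynrin).

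**Figure D5:**
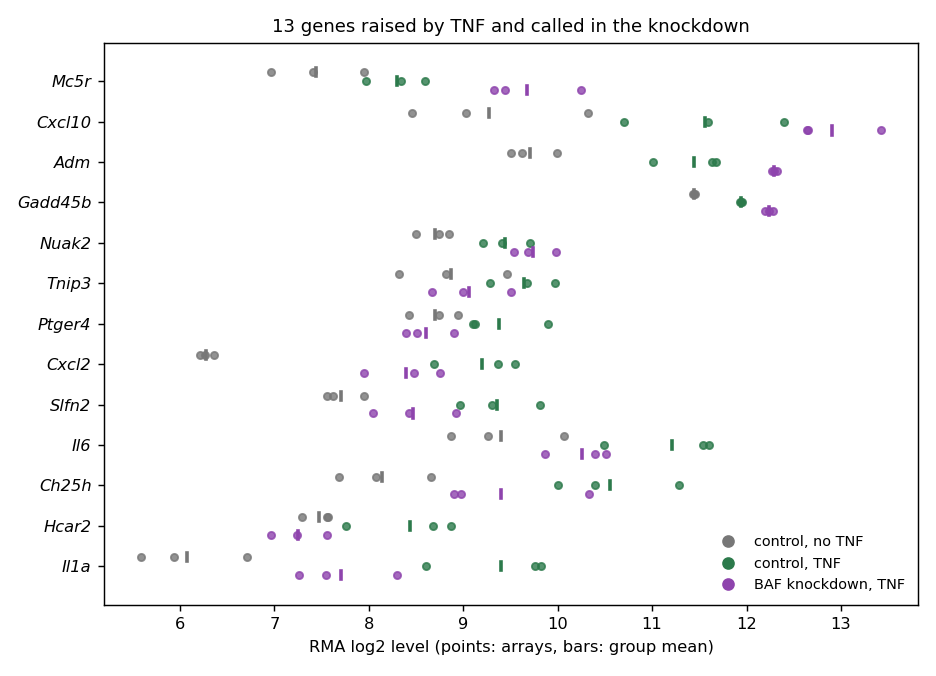
RMA log2 level (x axis) on each array of the 13 genes that TNF-α raised in control cells and that were called in BAF-knockdown cells (y axis). Points are arrays, bars the group means, in grey for control cells without TNF-α, green for control cells with it and purple for BAF-knockdown cells with it. In the upper 5 genes the purple bar lies to the right of the green bar, and in the lower 8 to its left, which follows from how the genes were chosen.

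Immediate early genes, which respond to serum and stress within minutes, gave 2 rises, Zfp36l1 (0.33) and Gadd45b, and 0 falls among 45. Egr1 gave -0.39 ± 0.22 (adjusted p = 0.57) and Fos -0.31 ± 0.21 (adjusted p = 0.659), with wide spreads between pairs. At the level of the pathway's transcription factors, Rela gave 0.00 ± 0.05 (adjusted p = 0.997), Relb 0.10 ± 0.10 (adjusted p = 0.787) and Nfkb2 0.20 ± 0.07 (adjusted p = 0.194). The interval of Rela, -0.12 to 0.13, leaves out a change of more than 0.13 in either direction.

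Receptor tyrosine kinases and growth factors gave 7 falls and 0 rises among 47 (14.9% lower): Pdgfc (-0.97 ± 0.16, adjusted p = 0.0192), Igf2 (-0.85), Angpt1 (-0.85, core), Igfbp6 (-0.59), the platelet-derived growth factor receptor Pdgfra (-0.57 ± 0.07, adjusted p = 0.00804), Vegfc (-0.44) and Vegfa (-0.33). Angpt1, the ligand of the Tie2 receptor, read 7.81, 8.10 and 6.97 in control and 6.98, 7.28 and 6.07 in knockdown arrays, so the groups overlapped while the 3 pairs fell alike (-0.85 ± 0.07, adjusted p = 0.00133). Without control array 3, Angpt1 alone was called in this list.

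Of 42 genes of the TGF-β and BMP pathways, the antagonists Chrdl1 (0.72 ± 0.08, adjusted p = 0.00407, core) and Nog (0.54 ± 0.08, adjusted p = 0.013) rose, whereas a further antagonist, Grem1 (-0.55 ± 0.06, adjusted p = 0.0043, core), the receptors Acvr1b (-0.53) and Tgfbr1 (-0.46, core) and the TGF-β binding protein Ltbp4 (-0.48) fell. Of 40 Wnt pathway genes, Wnt5a (0.76 ± 0.12, adjusted p = 0.0162) and the nuclear effector Lef1 (0.42) rose, and the secreted inhibitor Sfrp1 (-1.03 ± 0.13, adjusted p = 0.00784) and the membrane-linked inhibitor Nkd2 (-0.41) fell. Wnt5a read 9.80, 9.60 and 9.43 in control and 10.47, 10.22 and 10.41 in knockdown arrays, with no overlap. Notch and Hedgehog genes gave a rise of Rbpj (0.33), the DNA-binding partner of Notch, and falls of Notch3 (-0.56), Gli2 (-0.38) and Hey1 (-0.33) among 27. No Wnt, Notch or Hedgehog gene belonged to the core.

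Transcription factors of mesenchymal identity and patterning gave 7 falls and 2 rises among 49. Zeb2, a repressor of epithelial genes, read 10.83, 10.45 and 10.40 in control and 10.04, 9.99 and 9.65 in knockdown arrays, with no overlap (-0.67 ± 0.07, adjusted p = 0.0033, core). Sox4 (-0.60), Sox5 (-0.39), Nfia (-0.38), Meis1 (-0.37), Meis2 (-0.33) and Tead3 (-0.28), a partner of the Hippo effector YAP, fell by less. Hic1 read 8.71, 8.80 and 8.69 in control and 9.41, 9.33 and 9.31 in knockdown arrays, tight groups that stood well apart, and was called with and without the block (adjusted p = 0.022 without it). Osr1 also rose (0.72 ± 0.15, adjusted p = 0.0449). Of 37 Hox genes Hoxa3 was called (-0.28), and 33 had an interval within 0.3 of 0. Their mean control level was 7.33, against a median level of 8.0 over all genes, so a change in dim members may not show.

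Adipogenic genes gave 3 falls and 0 rises among 31, in Ebf1 (-1.09 ± 0.15, adjusted p = 0.00874), a transcription factor of early adipocyte commitment, the fatty acid carrier Fabp4 (-0.81 ± 0.07, adjusted p = 0.00169, core) and the triglyceride enzyme Dgat2 (-0.57). Lysosomal enzymes gave rises of Ctso and Ctsh (0.67) and falls of the sorting receptor Sort1 (-0.76 ± 0.05, adjusted p = 0.000547, core) and the sphingomyelinase Smpd1 (-0.31) among 31. Bcl2l11, which encodes the pro-apoptotic Bim, read 9.48, 9.72 and 9.65 in control and 8.99, 8.91 and 8.96 in knockdown arrays. It fell with and without the block (-0.66 ± 0.08, adjusted p = 0.00476, core) and was the only one called of 21 apoptosis regulators. Creb3l1, a membrane-bound transcription factor of secretory cells, was the only one of 30 unfolded protein and amino acid stress genes (-0.74 ± 0.09, adjusted p = 0.00591).

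Cell-cycle and replication genes gave 2 rises and 0 falls among 53, with 41 differences above 0 (54.4% of all genes lay above 0) and a median of 0.10. Ccnd2, which encodes the G1 regulator cyclin D2, read 12.71, 12.46 and 12.68 in control and 13.19, 13.02 and 13.31 in knockdown arrays. The groups stood apart and the pairs rose by like amounts (0.56 ± 0.06, adjusted p = 0.00407, core). Its kinase partner Cdk6 rose by less (0.25 ± 0.05, adjusted p = 0.0278). None of 28 cell-cycle inhibitors and p53 targets was called by limma, with 6 higher and 3 lower at p under 0.05 before adjustment. The largest difference among them was that of Plk3 (0.38 ± 0.11, adjusted p = 0.162).

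None of 31 sterol and fatty acid synthesis genes was called by limma (7 higher and 1 lower at p under 0.05 before adjustment). Their median was 0.12, and 26 lay above 0, against 54.4% of all genes. The largest was Mvd (0.39 ± 0.18, adjusted p = 0.406). None of 23 cytosolic ribosomal protein genes was called (0 and 0 at p under 0.05 before adjustment), and their differences ran from -0.15 to 0.02. None of 35 respiratory chain subunits was called either (0 higher and 1 lower unadjusted), with differences of -0.23 to 0.12.

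The labelled cell type was checked against marker lists. Of 18 fibroblast markers 15 lay above the median control level of all genes, among them Vim, Col1a1, Col1a2 and Fn1, and 2 lay below the first quartile. In BAF-knockdown cells 6 of the 18 fell and 0 rose. The 6 were Dcn, Col3a1, Postn, Pdgfra, Col6a1 and S100a4 (-1.18 ± 0.20, adjusted p = 0.0245), a calcium-binding protein of motile fibroblasts. Averaged over the list, levels ran from 10.89 to 11.22 in control arrays and from 10.53 to 10.80 in knockdown arrays, with no overlap. In such bulk samples fewer cells of a type and less RNA per cell cannot be told apart. Vim differed by -0.01 ± 0.04 (adjusted p = 0.983) and Pdgfrb by -0.15 ± 0.05 (adjusted p = 0.242). None of 20 leukocyte markers was called by limma (1 higher unadjusted), and their mean level, 6.43 to 6.48 in control and 6.44 to 6.55 in knockdown arrays, lay near the first quartile of the signals. None of 21 epithelial and endothelial markers was called (0 unadjusted), with mean levels of 7.12 to 7.18 and 7.13 to 7.25, so the rise of Cldn1 came without a called rise of these markers. Above the median control level lay 1 of the 20 leukocyte markers and 3 of the 21 epithelial and endothelial ones. Below the first quartile lay 11 and 6 in that order.

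Called genes of high signal included several not yet described. S100a6, a calcium-binding protein, read 12.92, 12.96 and 12.92 in control and 13.23, 13.32 and 13.44 in knockdown arrays, a complete separation (0.39 ± 0.06, adjusted p = 0.0134). The surface glycoprotein Cd24a (-0.40), the endoplasmic reticulum protein Rcn3 (-0.40), the membrane protein Tmem176b (-0.37) and the putative nucleotidase Nt5dc2 (-0.27) fell by small amounts, and the arrays of Nt5dc2 overlapped.

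A second reading of the same genes came from other transcript clusters. In all, 30 called genes had 54 further clusters, of which 52 had the sign of the tested cluster and 20 were called themselves. Over all genes with several clusters 75.4% of the further clusters had that sign and 1.91% were called. The 2 of opposite sign belonged to Tor1aip2 and P2rx3. Kif26b, a kinesin, gave -0.94 in its tested cluster and -0.80 in the other (adjusted p = 0.0017). Clusters that the annotation gives several symbols were called too, 3 higher (0.21%) and 16 lower (1.12%) of 1430, as were 12 higher (0.281%) and 15 lower (0.351%) of 4275 with none, adjusted over all clusters, and they name no gene.

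Called genes were also placed in chromosomal order, in the RefSeq table, without use of the array's coordinates. Of 651 called genes placed, 94 stood in 43 runs of called genes with no other placed gene between them, so that 14.4% had a called neighbour, against 6.42% of all placed genes. Of 51 adjacent pairs 45 moved in the same direction. The 2 largest rises, P3h2 and Cldn1, are neighbours. The longest run held 4 genes, all higher: Gbp7, Gbp3, Gbp2b (1.05 ± 0.16, adjusted p = 0.016) and Kyat3 (0.61 ± 0.09, adjusted p = 0.0129), an aminotransferase. Cxcl10 and Cxcl11 are neighbours, as are Cx3cl1 and Ccl17, and Ankrd1 and Pcgf5. Swap70 (0.50), Sbf2 (0.27) and Adm form a run that rose.

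Runs that fell included Ifi202b (-1.23 ± 0.16, adjusted p = 0.00712), Ifi203 (-0.51) and Ifi207 (-0.25), sensors of cytosolic DNA and their relatives, and members of the Nat8 family, Nat8f5 with Nat8 (-1.14) and Nat8f4 (-0.57) with Nat8f1 (-0.82). Neighbours that moved apart were fewer: Ccl5 rose beside Ccl9, which fell, and Ctso beside Pdgfc. The genes of these runs were named after their values were seen. Guanylate-binding, Ifi200, Nat8, serpin b and protocadherin b genes have near-identical copies, so probes may read more than 1 of them and their single values are uncertain.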

How the data were processed

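Total RNA of 3T3 cells was hybridised to Affymetrix mouse Gene 1.0 ST arrays, 3 per group, labelled as separate replicates that the methods place on different days. The deposited values are log2 signals that the authors obtained by RMA. The version of that software and the genome build of the array annotation are not given in the sources used here, and the labels and the methods name different RNA extractions. Columns of other samples numbered 0.

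Of 27024 transcript clusters, 21319 had 1 gene symbol in the platform annotation, 1430 several and 4275 none, and 21237 of the 21319 matched RefSeq by gene identifier. For 930 genes with several clusters the one with the highest mean was used. Clusters without a single symbol name no gene.

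The difference was fitted with limma 3.58.1 in R 4.3.3 (lmFit, eBayes) on all 9 arrays, with 1 mean per group and the replicate number as a block (4 residual degrees of freedom), two-sided, with Benjamini-Hochberg adjustment over all genes. The block follows from the replicate number in the title. The methods place the replicates of a group on different days, and whether arrays of the same number share a day is not stated. Same-numbered control and knockdown arrays deviated together from their group means (correlations 0.388, 0.21 and 0.247). Over all groups same-numbered arrays gave 0.21 to 0.724 and others -0.566 to 0.011. The highest values, 0.579 to 0.724, came from control arrays with and without TNF-α. Deviations within a group cancel out, so positive values for same-numbered arrays push the others towards negative ones. The ranges are therefore not independent. Precision is set by the number of arrays, which carry no read depth, and p-values measure the spread between these arrays. The script was tested on simulated data.

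Genes were named by rule: the targets, the 15 greatest differences in each direction among called genes whose groups did not overlap, the 10 called genes of highest mean signal, called list members or else the largest, and genes with a cluster of opposite sign. Members and lists were chosen with earlier results of these data known. The 39 lists held 1316 entries, of which 1223 were measured. Alternatives were the fit without the block, the 6 TNF-α-treated arrays alone, an intensity trend, median centring, array weights, omission of the dimmest 25% of genes, the mean over clusters, and each array and each replicate left out. A further one was an unpaired Student's t-test of the 6 TNF-α-treated arrays with a difference over 0.3. The methods use a t-test for inducible genes, and for BAF-dependent or BAF-inhibited genes they state the difference over 0.3 alone. Promoters and gene order came from RefSeq.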

Additional observations from a re-analysis of the deposited data

How the results depend on the processing

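With the block removed, 7 genes were called higher and 20 lower (list members 3 and 11). With the replicate block but the 6 TNF-α-treated arrays alone the counts were 42 and 119 (list members 14 and 40). An unpaired Student's t-test with a difference over 0.3 gave 146 and 287 genes, and 0 and 0 after adjustment. The difference over 0.3 alone, with no test, gave 368 and 645. That is the rule the methods state for BAF-dependent and BAF-inhibited genes. An intensity trend, median centring, array weights, omission of dim genes and the mean over clusters kept both counts within 1.5 times, at 166 to 258 higher and 408 to 551 lower. With single arrays or whole replicates left out, genes called higher ran from 0 to 466 and genes called lower from 0 to 718, and list members from 0 to 95 and from 0 to 129. The lowest values came without replicate 1, the highest without knockdown array 2. The cause was not tested.

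The Smarca4 difference ran from -1.22 to -1.0 with arrays left out. It lost its call without replicate 1 (-1.10, adjusted p = 0.148) and under the unpaired Student's t-test (-1.11, adjusted p = 0.465). Smarca2 ran from -0.42 to -0.26 and was called only without unstimulated control array 2 (-0.36, adjusted p = 0.0328). Of 167 named called genes, 152 lost their call without the block and all 167 without replicate 1 and under the adjusted t-test. None changed sign under any alternative. Every called gene had the same sign in each pair of arrays, and several alternatives reuse the same difference, so the stable signs test little. A comparison of promoter features was void, since sequences were at hand for 75.2% of genes called lower and 77.7% of those called higher, under the minimum of 80%.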

Other observations

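The 3 pairs of arrays differed in spread: the SD of the paired differences over all genes was 0.205 in pair 1, 0.2 in pair 2 and 0.239 in pair 3. Over the called genes, the slope of each pair's differences on their mean was 1.021, 0.822 and 1.157 in that order. The called genes were chosen on that mean, so the slopes describe the pairs and test nothing.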
